A study of Mus musculus with 51 samples.

Results

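Tradd and Amigo2 were the genes that differed between wild-type (wt) and mutant serotonergic neurons at 4 months of age, and they are 2 of the 24564 genes in the deposited count table. They were chosen on that difference: of 15633 genes tested there, 2 (0.0128%) had an adjusted p under 0.05 by the quasi-likelihood test of edgeR (Benjamini-Hochberg adjusted), both higher in mutants. The 4-month serotonergic values are therefore given as a description without a test, and tests are given for contrasts of the other libraries. The 8-month 5HT libraries were in the same fit and shared its estimate of the spread and its filter on low counts, so their test is not wholly separate from the choice. Just inside the threshold stood Tradd and Amigo2, both at an adjusted p of 0.0136. Just outside it stood Zfp810 (log2 fold change 2.62, adjusted p = 0.0519), Tet3 (-1.43, adjusted p = 0.0803) and A130010J15Rik (3.36, adjusted p = 0.107). The count of 2 moved with the setting: 0 genes were called without mutant replicate 1 or without wt replicate 1, 1 without wt replicate 4, 4 without mutant replicate 3 or wt replicate 2 or 3, and 48 by DESeq2.

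RNA was read from neurons that had been sorted by fluorescence from the midbrain of adult mice, with Smart-seq2, which covers transcripts over their full length. Serotonergic neurons (5HT) belonged to the strain SertCreEed and midbrain dopaminergic neurons (mDA) to the strain DatCreEed. In both strains animals were labelled wt or PRC2 mutant, at 4 or 8 months. PRC2 (Polycomb repressive complex 2) methylates lysine 27 of histone H3, and Eed is one of its core subunits. There were 4 5HT animals of each genotype at each age, and in mDA 9 wt and 10 mutants at 4 months and 8 of each at 8 months, 51 libraries in all with 1 animal each. By the strain names the deletion rests on Cre driven from the serotonin or the dopamine transporter gene, which are active only in the neurons that carry that transporter, and the labels do not say which alleles the wt animals carry. Cell type and strain cannot be told apart. All 5HT libraries were of 1 sequencing set, whereas mDA libraries fell into 3.

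Total counts ran from 1644460 to 12250492 per library. Eed was not lower in labelled mutants: its mean level was 24.9 CPM (counts scaled to a library of 1000000) in 5HT mutants against 10.2 in wt at 4 months and 17.7 against 13.5 at 8 months, and 23.6 against 14.1 and 22.5 against 13.4 in mDA. Reads over all Eed exons do not single out a deleted part, so this checks no label, and "mutant" below means labelled mutant. The sorted populations carried their defining genes. Tph2, which encodes the serotonin-synthesizing enzyme of the brain, was at 2498 ± 461 CPM (SD, n = 4) in 5HT wt at 4 months and at 7.15 ± 4.42 (n = 9) in mDA wt of that age, and Th, the dopamine-synthesis enzyme gene, at 10.9 ± 5.28 and 1913 ± 417 CPM. In such sorted bulk samples fewer cells of a type and less RNA per cell cannot be told apart.

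TRADD is an adaptor protein with a death domain that is recruited to TNF receptor 1 when the receptor binds its ligand. From there it brings in TRAF2 and the kinase RIPK1, which leads to NF-kB activation and survival signalling, or takes part in a second complex with FADD and caspase 8 that starts cell death. AMIGO2 belongs to a small family of neuronal membrane proteins with leucine-rich repeats and an immunoglobulin domain that act in cell adhesion. Its relatives are AMIGO1 and AMIGO3.

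On GRCm38 Tradd lies on chromosome 8 (105258575 to 105264594, minus strand) and Amigo2 on chromosome 15 (97244074 to 97247287, minus strand). PRC2 is known to bind mainly at start sites rich in CG pairs, so the stretch just before the Amigo2 start site is printed here (chr15:97247288-97247537, minus strand, 5′ to 3′, RefSeq on GRCm38.p6), with each CG pair in capitals:
Amigo2: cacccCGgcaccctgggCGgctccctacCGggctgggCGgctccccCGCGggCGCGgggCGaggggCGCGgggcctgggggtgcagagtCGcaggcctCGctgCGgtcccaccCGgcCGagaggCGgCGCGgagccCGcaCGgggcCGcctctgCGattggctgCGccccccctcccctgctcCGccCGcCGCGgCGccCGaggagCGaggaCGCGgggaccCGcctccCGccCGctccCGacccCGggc
These 250 bases held 38 CG pairs, and G and C made up 84.0% of them. Over the 32841 promoter windows of this length in the RefSeq table the median was 6 CG pairs and 52.4% G and C, and 1.88% of windows held at least 38 CG pairs. The same window held 20 CG pairs at Amigo1 (17.95% of windows held as many) and 3 at Amigo3 (70.98%). A CG pair reads the same on both strands, and these counts describe letters, not binding.

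Tradd had no read in any 5HT wt library at 4 months and reads in every mutant library of that age. The counts were 0, 0, 0 and 0 in wt replicates 1 to 4 and 46, 44, 5 and 53 in mutant replicates 1 to 4. As CPM, the mutants stood at 7.58, 8.20, 2.00 and 8.28. Mutant replicate 3 was the lowest, and the groups did not overlap. Library totals were 3211468 to 5602332 in these wt and 2795515 to 6047882 in these mutants, and mutant replicate 3 was the shallowest of the 8. A count of 0 allows a level of up to 3 counts, which is 0.531 to 0.974 CPM in single wt libraries. With the libraries of a group pooled, the mutants stood at 7.28 CPM, at least 46.4-fold higher than the 0.157 CPM that 3 counts over the whole wt group would give. Reads here are not tied to single molecules, and this floor covers counting error alone.

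Among the other groups Tradd was never missing: 47 of the 51 libraries had at least 1 read, and the 4 without were the 5HT wt libraries at 4 months. Of all 24564 genes, Tradd was the 1 gene at 0 in every one of these 4 libraries and detected in all 47 others. These 4 libraries were part of the choice of Tradd, so this is a description only. No gene had that pattern for any of the other 7 groups. The mDA groups among them held 8 to 10 libraries, where 0 in every library is harder to reach. Within the 4-month 5HT libraries alone, 7 genes had 0 reads in all wt and at least 5 in every mutant, and 0 genes had the reverse. The limit of 5 was Tradd's own lowest count in these mutants. The wt libraries also held reads for fewer genes, 16202 to 18434 against 17370 to 19074 in mutants. Besides Tradd the 7 genes were Chrnb4, Gm1045, Aim2, C920009B18Rik, Ercc6l and Hoxc8, named after their values had been seen.

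**Figure D1:**
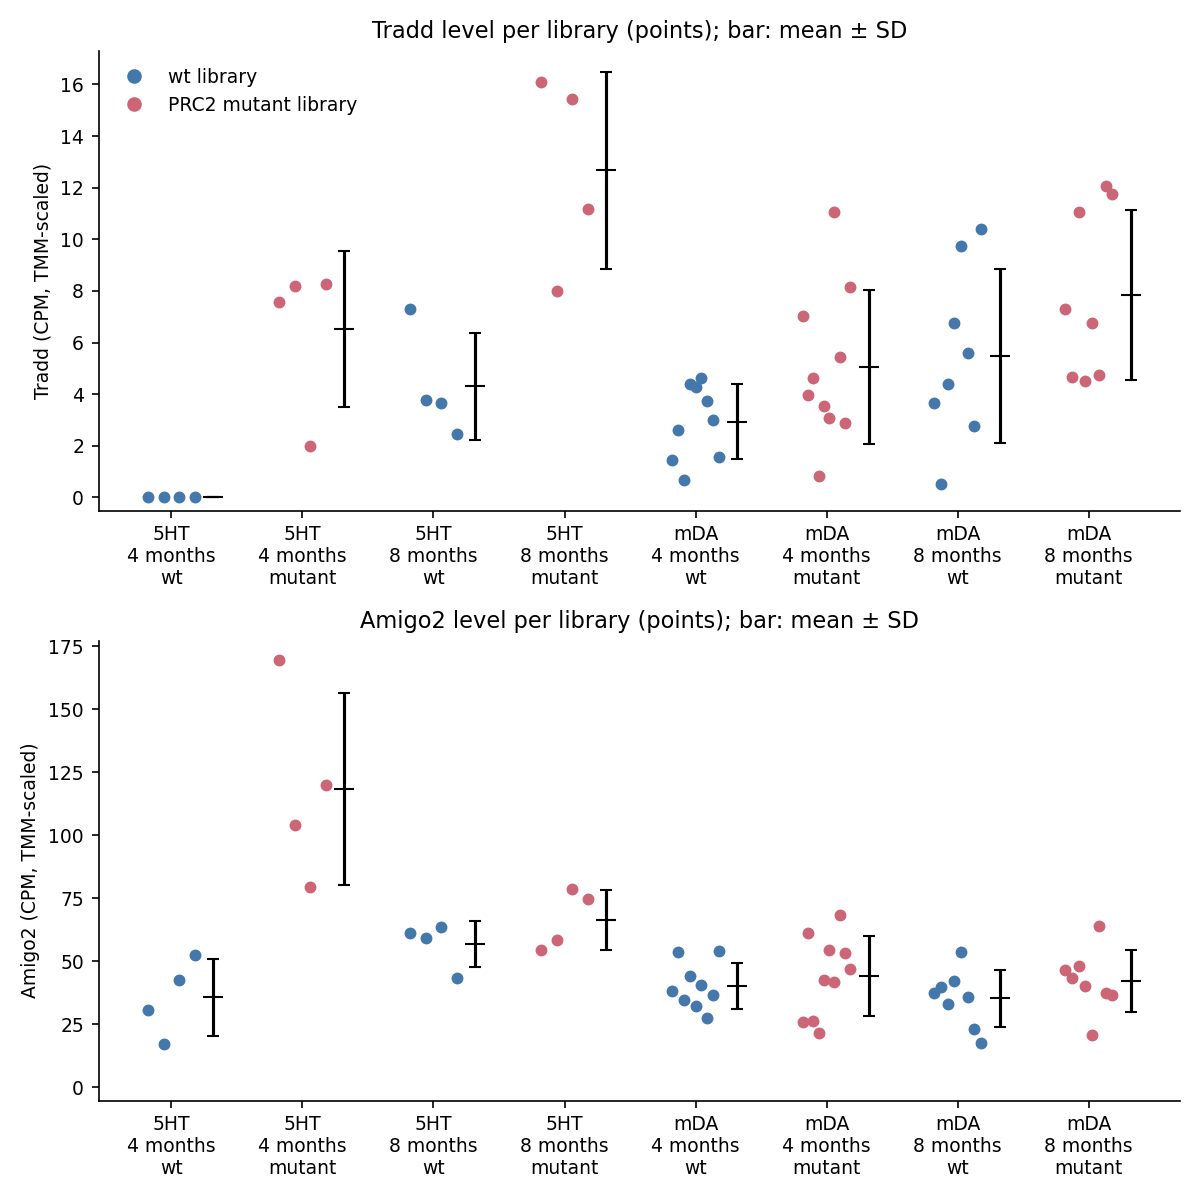
Level of Tradd (upper panel) and Amigo2 (lower panel) in CPM on TMM-scaled library sizes for each of the 51 libraries, by cell type, age and genotype; points are libraries and bars the mean ± SD. Tradd is at 0 in the 4 wt 5HT libraries at 4 months, and Amigo2 is highest in the 4 mutant 5HT libraries of that age, at 79.5 to 170 CPM.

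Amigo2 was detected in every library, at 17.2 to 170 CPM. In 5HT neurons at 4 months it stood at 30.8, 17.2, 42.5 and 52.4 CPM in wt replicates 1 to 4. In the mutants it stood at 170, 104, 79.5 and 120 CPM. Every mutant was above every wt library. The means were 118 ± 38.1 CPM in mutants and 35.7 ± 15.2 in wt (SD, n = 4 each), a log2 fold change of 1.81 (approximate SE 0.28), or 3.51-fold. Replicates 1 and 2 of both genotypes were male and replicates 3 and 4 female.

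Markers of other cells in these 8 libraries were summed beside the members, and all markers of each list had reads in both groups. The sums for 10 astrocyte markers were 252 to 536 CPM in mutants and 331 to 625.1 in wt, and for 10 oligodendrocyte markers 386 to 1537 and 630 to 1678. For 5 oligodendrocyte precursor markers they were 23.98 to 66.5 and 5.84 to 39.5, for 10 microglia markers 44.2 to 58.7 and 49.3 to 103, and for 9 endothelial and mural markers 22.4 to 72.4 and 16.2 to 54.3. The ranges overlapped between genotypes for each of the 5 lists, but the precursor markers were higher on average in mutants (44.3 ± 17.7 against 22.4 ± 13.9 CPM), with 4 of 5 positive and a median log2 fold change of 1.04, and 0 called. Microglia markers were lower on average in mutants (50.4 ± 6.94 against 75.8 ± 23.2 CPM), with 2 of 10 positive, a median of -0.59 and 0 called. The serotonergic markers summed to 4114 to 7348 CPM in mutants and 4059 to 5889 in wt. The part of other cells in the Tradd and Amigo2 values was not tested.

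At 8 months Tradd was measured in wt 5HT libraries as well. The wt libraries had 35, 21, 24 and 14 counts, or 7.28, 3.79, 3.67 and 2.45 CPM. The mutants had 93, 46, 93 and 72 counts, or 16.1, 7.98, 15.4 and 11.2 CPM. The lowest mutant was above the highest wt library, so the groups did not overlap. Means were 12.7 ± 3.81 and 4.30 ± 2.08 CPM (SD, n = 4 each), 2.98-fold higher in mutants (log2 fold change 1.58, approximate SE 0.74 and 95% interval 0.13 to 3.02). Across all genes this was not called: the unadjusted p was 0.0457 and the edgeR adjusted p 0.999668. Fitted on the 8 libraries of this age alone, the log2 fold change was 1.71 (adjusted p = 0.208 by edgeR). The exact two-sided permutation test of log2 CPM for this 1 gene gave p = 0.0286, the smallest that 4 against 4 libraries allow.

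Amigo2 showed no such gap at 8 months. The wt 5HT libraries stood at 61.4, 59.2, 63.6 and 43.2 CPM and the mutants at 54.4, 58.5, 78.6 and 74.6. Both groups overlapped, and 2 of the 4 mutants were above the highest wt library. The log2 fold change was 0.31 (approximate SE 0.27, 95% interval -0.23 to 0.84, edgeR adjusted p = 0.999668; exact permutation p = 0.286). In this comparison 0 of the 2 genes were called by edgeR and 0 by DESeq2, with Tradd alone at an unadjusted p under 0.05, where 62 of 15633 genes (0.397%) were called, 0.249% higher and 0.147% lower. By contrast, Tph2 was called lower (log2 fold change -2.76) and so was Slc6a4, the serotonin transporter gene (-2.29), and the serotonergic markers summed to 1018 to 1405 CPM in mutants against 5084 to 6656 in wt. The 10 microglia markers summed to 78.6 to 90.7 CPM in mutants and 118 to 184 in wt, without overlap. The dopaminergic markers, which include genes that 5HT neurons share, summed to 1514 to 1773 and 3775 to 4137 CPM, also without overlap. The other 4 marker lists overlapped between genotypes, and the part of all these in the Tradd values was not tested.

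Since the 4-month libraries chose the genes, the ages are set side by side without a test. Mean Tradd was 0 CPM in 5HT wt at 4 months and 4.30 at 8 months, and 6.51 ± 3.03 and 12.7 ± 3.81 in mutants. Mean Amigo2 was 35.7 and 56.8 ± 9.28 CPM in wt, and 118 and 66.5 ± 11.9 in mutants. Amigo2 in 8-month mutants, at 54.4 to 78.6 CPM, thus lay below every 4-month mutant, at 79.5 CPM or more. This gap depended on the TMM scaling of 4-month mutant replicate 3. On library totals alone that library stood at 71.2 CPM, and 8-month mutant replicates 3 and 4 at 80.2 and 75.5, so the groups overlapped. All 8-month wt libraries but the lowest, at 43.2 CPM, were above the highest 4-month wt library, at 52.4 CPM.

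**Figure D2:**
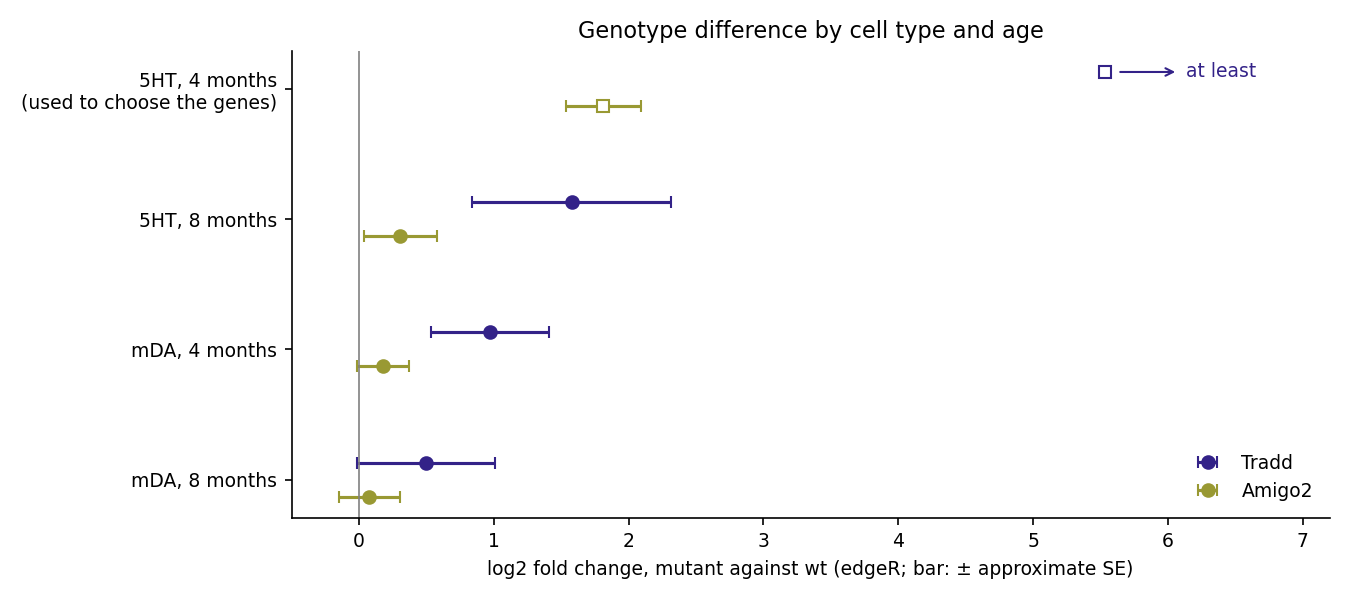
Log2 fold change of Tradd and Amigo2 between labelled mutants and wt in each cell type at each age (x axis), with bars for the approximate SE; open squares mark the 4-month 5HT contrast that chose the genes. There the Tradd square is the lower bound (at least 46.4-fold) and has no error bar, since wt had 0 counts; the other values run from 0.08 (Amigo2, mDA, 8 months) to 1.81.

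In mDA neurons at 4 months neither gene was called. Tradd ranged from 0.662 to 4.64 CPM in the 9 wt libraries (median 2.99) and from 0.843 to 11.04 in the 10 mutants (median 4.29). The groups overlapped, with 4 of 10 mutants above the highest wt library. Means were 5.06 ± 2.98 CPM in mutants and 2.92 ± 1.45 in wt, a log2 fold change of 0.97 with sex and sequencing set in the fit (approximate SE 0.44, 95% interval 0.12 to 1.82; unadjusted p = 0.0315, edgeR adjusted p = 0.285). The exact permutation test, which takes no account of set or sex, gave p = 0.107. Amigo2 ranged from 27.6 to 54.2 CPM in wt (median 38.4) and from 21.5 to 68.5 in mutants (median 44.8), with a log2 fold change of 0.18 (approximate SE 0.19, 95% interval -0.20 to 0.55, edgeR adjusted p = 0.740; exact permutation p = 0.732). edgeR and DESeq2 each called 0 of the 2 genes, and Tradd was under an unadjusted p of 0.05, while 181 of 15425 genes (1.17%) were called, 0.577% higher and 0.596% lower. Oligodendrocyte markers summed to 711 ± 288 CPM in mutants and 1078 ± 402 in wt, microglia markers to 50.7 ± 17.4 and 76.2 ± 23.2, precursor markers to 35.8 ± 13.4 and 48.8 ± 16.6, and astrocyte markers to 396 ± 87.6 and 477 ± 43.2, with 9 of 10 astrocyte markers at a negative log2 fold change. Their part in these values was not tested.

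Within the sequencing sets the Tradd difference kept its sign. Its log2 fold change was 1.52 in set1, 0.38 in set2 and 1.26 in set3 (edgeR on each set alone). In set1 all wt animals were male and all mutants female, and in set3 the reverse, so that genotype and sex cannot be told apart in either. Set2 held both sexes in both genotypes: there Tradd was 5.78 ± 3.66 CPM in 4 mutants and 4.26 ± 0.38 in 4 wt animals, a difference smaller than the spread between mutants. For Amigo2 the sets disagreed in sign, at -0.19 in set1, 0.56 in set2 and 0.13 in set3.

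At 8 months in mDA neurons Tradd ranged from 0.515 to 10.4 CPM in the 8 wt libraries (median 4.99) and from 4.51 to 12.1 in the 8 mutants (median 7.03). The ranges overlapped widely, and 3 mutants were above the highest wt library. The log2 fold change was 0.50 (approximate SE 0.51, 95% interval -0.50 to 1.5, edgeR adjusted p = 0.669; exact permutation p = 0.144). Amigo2 ranged from 17.5 to 53.8 CPM in wt (median 36.7) and from 20.9 to 64.0 in mutants (median 41.7), with a log2 fold change of 0.08 (approximate SE 0.23, 95% interval -0.37 to 0.53, edgeR adjusted p = 0.906; exact permutation p = 0.288). Neither edgeR nor DESeq2 called either gene (0 of 2, and 0 at an unadjusted p under 0.05), against 666 of 15425 genes (4.32%) called in all, 2.44% higher and 1.88% lower.

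Set3 at this age held wt animals only. Without it, the Tradd log2 fold change was 0.57 in set1 and 0.01 in set2, and that of Amigo2 0.13 and -0.15. The 2 wt animals of set3 held the 2 lowest wt values of Amigo2, 23.2 and 17.5 CPM. One of them, wt replicate 8, had the smallest library of the series (1644460 counts) and the highest wt Tradd level, 10.4 CPM from 19 counts. The dopaminergic markers summed to 3001 to 3934 CPM in mutants and 5054 to 9372 in wt at this age, without overlap. Astrocyte markers summed to 436 to 1616 CPM in mutants and 334 to 633 in wt, and endothelial and mural markers to 6.99 to 675 and 6.03 to 44.8, with all markers detected in both groups. Mean sums in mutants and wt were 1009 ± 375 and 739 ± 172 CPM for oligodendrocyte markers. For precursor markers they were 54.1 ± 19.6 and 37.9 ± 13.6, and for microglia markers 74.2 ± 23.1 and 69.7 ± 15.2. The high endothelial sums were those of 3 set2 mutants, replicates 5, 6 and 8 (655, 318 and 675 CPM), and the other 5 mutants lay at 6.99 to 28.3. Tradd in these 3 was 6.77, 4.75 and 11.7 CPM and Amigo2 20.9, 64.0 and 36.6, inside or at the ends of the mutants' ranges. The part of these cells in the Tradd and Amigo2 values was not tested.

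**Figure D3:**
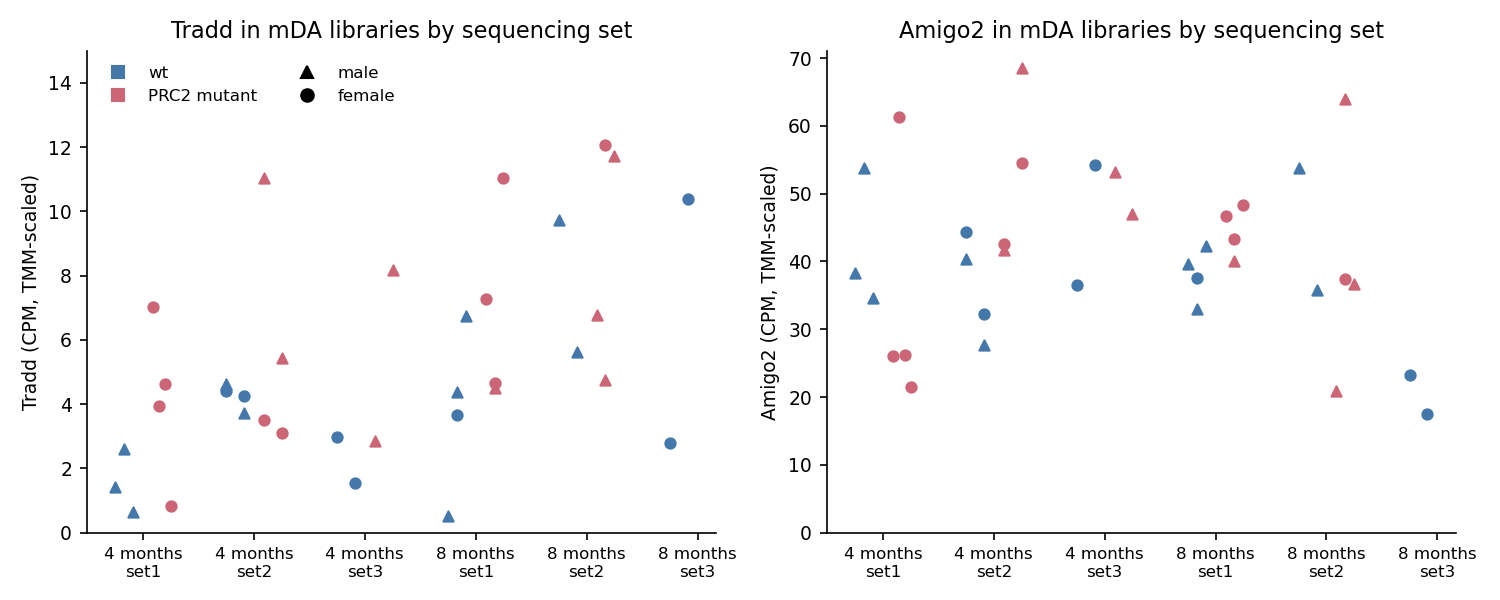
Tradd (left) and Amigo2 (right) in CPM on TMM-scaled library sizes in the 35 mDA libraries by age and sequencing set; colour gives genotype and marker shape sex. In set2 at 4 months the wt Tradd values lie between 3.74 and 4.64 CPM, inside the mutants' range of 3.09 to 11.04.

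The differences between these genotype effects were tested directly for contrasts that hold no 4-month 5HT group. In mDA neurons the 8-month minus the 4-month effect was -0.47 for Tradd (approximate SE 0.66, edgeR adjusted p = 0.745) and -0.10 for Amigo2 (0.29, adjusted p = 0.894). edgeR and DESeq2 called 0 of the 2 (0 at an unadjusted p under 0.05), where 6.11% of 15425 genes were called (3.76% with a higher and 2.35% with a lower effect at 8 months). Between cell types at 8 months, the 5HT effect minus the mDA effect was 1.06 for Tradd (approximate SE 0.82, 95% interval -0.55 to 2.66, edgeR adjusted p = 0.817) and 0.20 for Amigo2 (0.38, interval -0.54 to 0.94, adjusted p = 0.940). This fit held all 51 libraries, those of the choice included, and on the 8-month libraries alone the differences were 1.40 (edgeR adjusted p = 0.750) and 0.32 (adjusted p = 0.906). Again 0 of the 2 were called by either tool, and 0 had an unadjusted p under 0.05, against 33 of 18386 genes (0.179%; 0.125% higher and 0.0544% lower). The interval for Tradd holds 0 as well as an effect larger by 2.66 in 5HT neurons, so a difference between the cell types was not detectable with these libraries.

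Between wt neurons of the 2 cell types at 8 months, Amigo2 was higher in 5HT, narrowly past the threshold. It was at 56.8 ± 9.28 CPM (SD, n = 4) in 5HT and 35.4 ± 11.2 (n = 8) in mDA, and the ranges overlapped (43.2 to 63.6 against 17.5 to 53.8). The log2 difference with sex in the fit was 0.79 (approximate SE 0.27, 95% interval 0.26 to 1.33, edgeR adjusted p = 0.0467). The call was lost with a term for sequencing set, which sets 5HT against the 4 mDA libraries of set1 (0.40, adjusted p = 0.401), without the sex term (0.66, adjusted p = 0.0536) and in 8 of 12 fits with a library left out. Tradd was at 4.30 ± 2.08 and 5.48 ± 3.39 CPM, a log2 difference of -0.57 (approximate SE 0.74, adjusted p = 0.639). Of the 14855 genes tested, 2819 (19%) were called by edgeR, 8.93% higher and 10.1% lower in 5HT. Some markers of other cells were also higher in these 5HT libraries: oligodendrocyte markers summed to 1018 to 1585 CPM against 496 to 984 in mDA, microglia markers to 118 to 184 against 49.4 to 88.5, and endothelial and mural markers to 64.1 to 96.0 against 6.03 to 44.8. Astrocyte sums overlapped (490 to 695 against 334 to 633 CPM), with Aldoc called higher (2.02) and Slc1a2 lower (-2.38) in 5HT. Precursor sums overlapped too (28.7 to 48.1 against 23.2 to 62.5 CPM), with a median log2 difference of -0.42. The part of all these in the Amigo2 difference was not tested.

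Ordered by mean level, Tradd ran from 5HT wt at 4 months (0 CPM) through mDA wt at 4 months (2.92), 5HT wt at 8 months (4.30), mDA mutants at 4 months (5.06), mDA wt at 8 months (5.48), 5HT mutants at 4 months (6.51) and mDA mutants at 8 months (7.85) to 5HT mutants at 8 months (12.7). The first of these did not overlap with the next, and every other pair of neighbours in the order overlapped. For Amigo2 the order ran from mDA wt at 8 months (35.4 CPM) through 5HT wt at 4 months (35.7), mDA wt at 4 months (40.3), mDA mutants at 8 months (42.2), mDA mutants at 4 months (44.2), 5HT wt at 8 months (56.8) and 5HT mutants at 8 months (66.5) to 5HT mutants at 4 months (118). Here the last step was the 1 between neighbours whose ranges did not overlap, and on library totals alone these ranges overlapped too.

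The genes next to Tradd were read for the same contrasts. Fbxl8, an F-box gene, starts 54 bases from Tradd on the opposite strand, and Hsf4, which encodes a heat shock transcription factor, lies 4820 bases from Tradd beyond it. Neither was called in any of the 4 genotype comparisons, and both had a positive log2 fold change in all 4, Fbxl8 from 0.62 to 1.57 and Hsf4 from 0.20 to 0.85. At 8 months in 5HT neurons Hsf4 stood at 31.8 to 42.7 CPM in the 4 wt and 55.9 to 76.2 in the 4 mutant libraries, without overlap (log2 fold change 0.85, edgeR adjusted p = 0.411). At 4 months Fbxl8 was at 0.208, 3.90, 2.83 and 6.82 CPM in wt and 12.4, 7.83, 12.8 and 6.10 in mutants, which overlapped. Farther out, B3gnt9, D230025D16Rik and Cbfb on the left and Nol3 on the right ran from -0.97 (Nol3, 5HT, 4 months) to 1.24 (B3gnt9, 5HT, 4 months), with 0 calls by edgeR. All these values come from the same libraries as those of Tradd.

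Next to Amigo2, Pced1b runs on the opposite strand and overlaps the Amigo2 gene by 315 bases. Whether the counting used strand is not given in the sources used here. Reads from this stretch could be counted for either gene. Pced1b had the opposite sign at 4 months in 5HT neurons, at 25.2, 10.4, 9.56 and 16.5 CPM in wt and 17.5, 13.8, 3.20 and 7.19 in mutants (log2 fold change -0.66). Its other 3 genotype differences were 0.14 to 0.19. The amino acid transporter genes Slc38a4, Slc38a2 and Slc38a1 on one side and Rpap3 on the other ranged from -0.53 to 0.27, again with 0 calls, and Endou was too low to be tested in these fits. Slc38a2 was positive in all 4 genotype comparisons (0.11 to 0.27) and Rpap3 in 0 of 4 (-0.50 to -0.08).

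**Figure D4:**
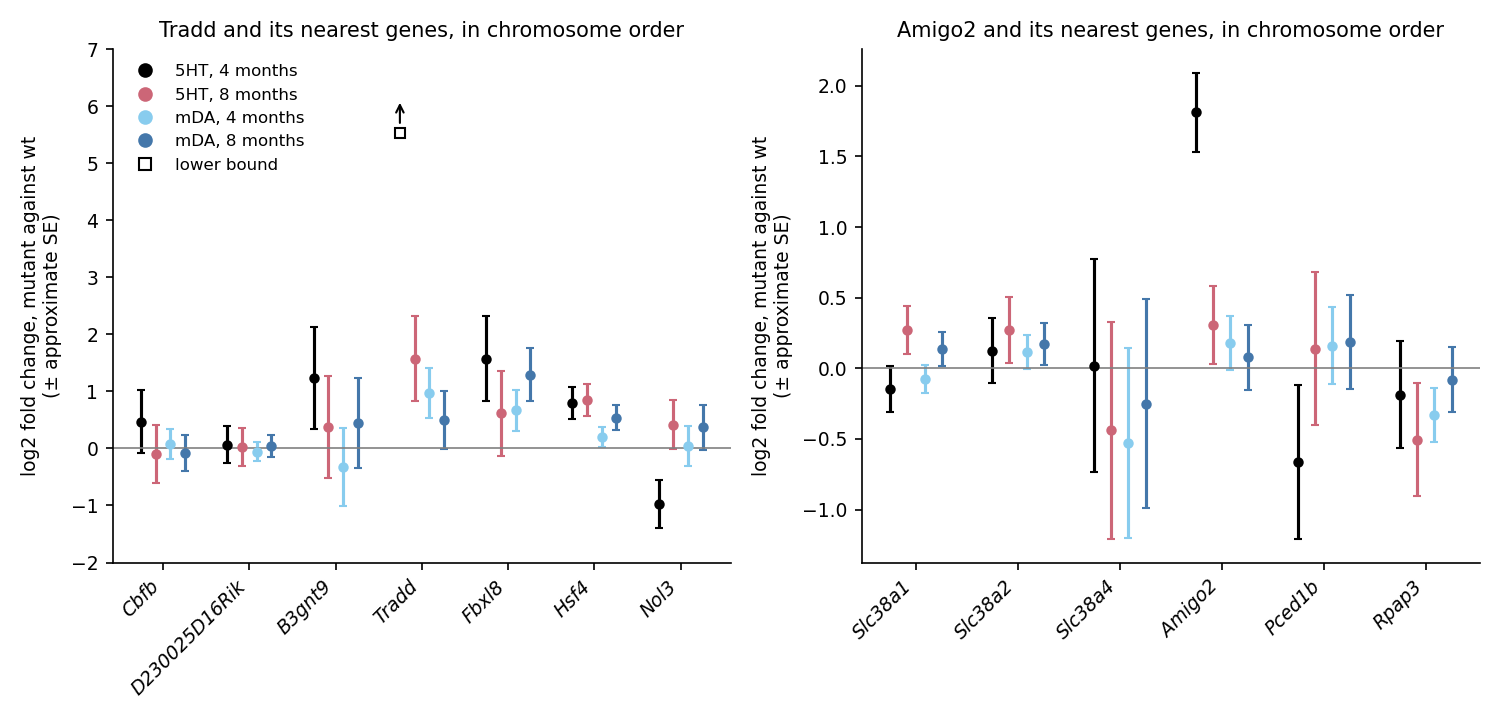
Log2 fold change (mutant against wt, y axis, bars approximate SE) of Tradd (left) and Amigo2 (right) and of their tested neighbours in chromosome order, for 2 cell types at 2 ages; the open square is the lower bound for Tradd. Fbxl8 and Hsf4 lie above 0 in all 4 comparisons, from 0.20 to 1.57, as does Slc38a2 near Amigo2 (0.11 to 0.27), and no neighbour was called.

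Within Amigo2's own family, Amigo1 was at 43.6 ± 24.2 CPM in 5HT wt and 46.4 ± 17.6 in mutants at 4 months (SD, n = 4 each), and its 4 genotype differences ran from -0.38 to 0.23. Amigo3 was at 8.65 ± 12.1 and 13.1 ± 6.64 CPM in these groups, with differences from -0.07 to 0.74. By edgeR 0 of these 8 tests were called, where 0.0128% to 4.32% of all genes were called.

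Other neuronal adhesion genes with leucine-rich repeats formed a list of 33, of which 32 were tested in each genotype comparison. In 5HT neurons 0 were called by edgeR or DESeq2 at either age (2 and 2 at an unadjusted p under 0.05), where edgeR called 0.0128% and 0.397% of all genes. In mDA neurons Lrfn5, which encodes a synaptic adhesion protein, fell at 4 months (48.4 ± 10.1 CPM in wt, n = 9, and 27.7 ± 14.04 in mutants, n = 10; log2 fold change -0.75, edgeR adjusted p = 0.0269). At 8 months Slitrk4 fell from 96.9 ± 16.1 to 46.6 ± 11.2 CPM (n = 8 each; -1.20, adjusted p = 8.14e-06) and Slitrk5 from 146 ± 21.9 to 106 ± 24.6 (-0.54, adjusted p = 0.0317). Both belong to a family of synapse-organizing membrane proteins. In mDA 3.12% of the list was called at 4 months and 6.25% at 8, beside 1.17% and 4.32% of all genes. The list medians in mDA were -0.17 and -0.01, beside -0.01 and 0.02 over all genes tested. Between the wt cell types 3 of 31 tested were higher in 5HT and 9 lower (38.7%, beside 19% of all genes), among them Slitrk4 (-1.52) and Elfn1 (-1.66) lower and Lrrtm1 (1.57) and Lrrtm3 (1.08) higher.

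Upstream of TRADD stand TNF superfamily ligands and receptors with death domains. The receptor list also held the gene of TNF receptor 2, which has no death domain. Of the 6 ligand genes 4 were tested in 5HT and 3 in mDA neurons, and 0 were called by edgeR, DESeq2 or at an unadjusted p under 0.05 in any genotype comparison. Over all genes edgeR called 0.0128% to 4.32% in these comparisons. Tnfrsf1a, the gene of TNF receptor 1 itself, was near the detection limit, at 0.04 ± 0.09 CPM in 5HT wt and 1.71 ± 1.24 in mutants at 4 months (SD, n = 4 each; edgeR adjusted p = 0.740) and at 2.51 ± 2.63 and 1.37 ± 1.79 at 8 months. All 7 receptor genes were tested in 5HT neurons and 4 in mDA. In mDA edgeR called 1 of the 4 at each age (25%), beside 1.17% of all genes at 4 months and 4.32% at 8. Tnfrsf1b, which encodes TNF receptor 2, rose in mDA mutants at 8 months, from 2.96 ± 2.14 to 11.3 ± 4.54 CPM (n = 8 each, log2 fold change 1.96, edgeR adjusted p = 0.0285). Its difference was positive in the other 3 genotype comparisons too but not called (1.65 and 1.39 in 5HT at 4 and 8 months, 0.90 in mDA at 4 months). In mDA at 8 months the medians of the astrocyte, endothelial and mural, and microglia markers were 1.31, 1.47 and 0.15. Their part in the Tnfrsf1b values was not tested. Tnfrsf21, a death receptor gene, fell in mDA mutants at 4 months (85.5 ± 26.4 to 53.8 ± 38.0 CPM, -0.63, adjusted p = 0.0472) and not at 8 months (0.30), and the difference between the ages was called (0.93, adjusted p = 0.0273). For that difference 25% of the receptor genes tested were called, beside 6.11% of all genes. The 10 oligodendrocyte markers had medians of -0.59, 0.58 and 0.94 in these contrasts, with 5 called higher in the last, and their part in the Tnfrsf21 values was not tested. Between the wt cell types Tnfrsf21 was higher in 5HT (0.81, adjusted p = 0.0371), 1 of 5 receptor genes tested (20%), beside 19% of all genes.

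Of the 21 genes for proteins that TRADD works with, from RIPK1 and the TRAFs to the ubiquitin enzymes and the kinases that activate NF-kB, 19 were tested in 5HT and 20 in mDA. In the genotype comparisons 1 gene among them was called, Chuk, which encodes the kinase IKK-alpha: it fell in mDA mutants at 8 months from 194 ± 43.2 to 128 ± 29.7 CPM (n = 8 each; log2 fold change -0.68, edgeR adjusted p = 0.00747). This was 5% of those tested, beside 4.32% of all genes. At 4 months the Chuk difference was 0.00, and the difference between the ages was called (-0.69, adjusted p = 0.0403). There too 5% of the list was called, beside 6.11% of all genes. Between the wt cell types 3 of 19 tested were called (15.8%, beside 19% of all genes), all lower in 5HT: Tab3 (-1.74), Traf3 (-0.83) and Chuk (-0.60). Ripk1 and Traf2, TRADD's direct partners, had log2 fold changes of 1.20 and 1.09 in 5HT at 4 months (adjusted p = 0.855 and 0.927) and of 1.10 and 0.25 at 8 months, but of 0.13 and -0.22 in mDA at 8 months. The smallest unadjusted p of the list in 5HT at 4 months was that of Sharpin, of the linear ubiquitin enzyme complex, with the opposite sign (-0.64, adjusted p = 0.620). In 5HT neurons 0 of the 19 were called by edgeR or DESeq2 at 4 or 8 months (2 and 1 at an unadjusted p under 0.05). Of all genes edgeR called 0.0128% and 0.397% there.

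Downstream, in the 8 genes of the death branch (Fadd, Casp8 and others) and the 8 of NF-kB subunits and inhibitors, edgeR called 0 in each genotype comparison. Over all genes it called 0.0128% to 4.32%. By DESeq2, Ripk3 of the death branch was called in 5HT mutants at 8 months (4.20 ± 2.36 CPM against 0.04 ± 0.08 in wt, n = 4 each; edgeR adjusted p = 0.258) and Nfkbia, an NF-kB inhibitor gene, in mDA mutants at 8 months (edgeR log2 fold change 1.11, adjusted p = 0.0890). These 2, and Tnfrsf1a, Ripk1, Traf2 and Sharpin above, were named after their values had been seen. The medians of the death branch were 0.25 and 0.09 in 5HT at 4 and 8 months and 0.13 and -0.18 in mDA, and those of the NF-kB list 0.11, 0.07, 0.09 and -0.20.

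**Figure D5:**
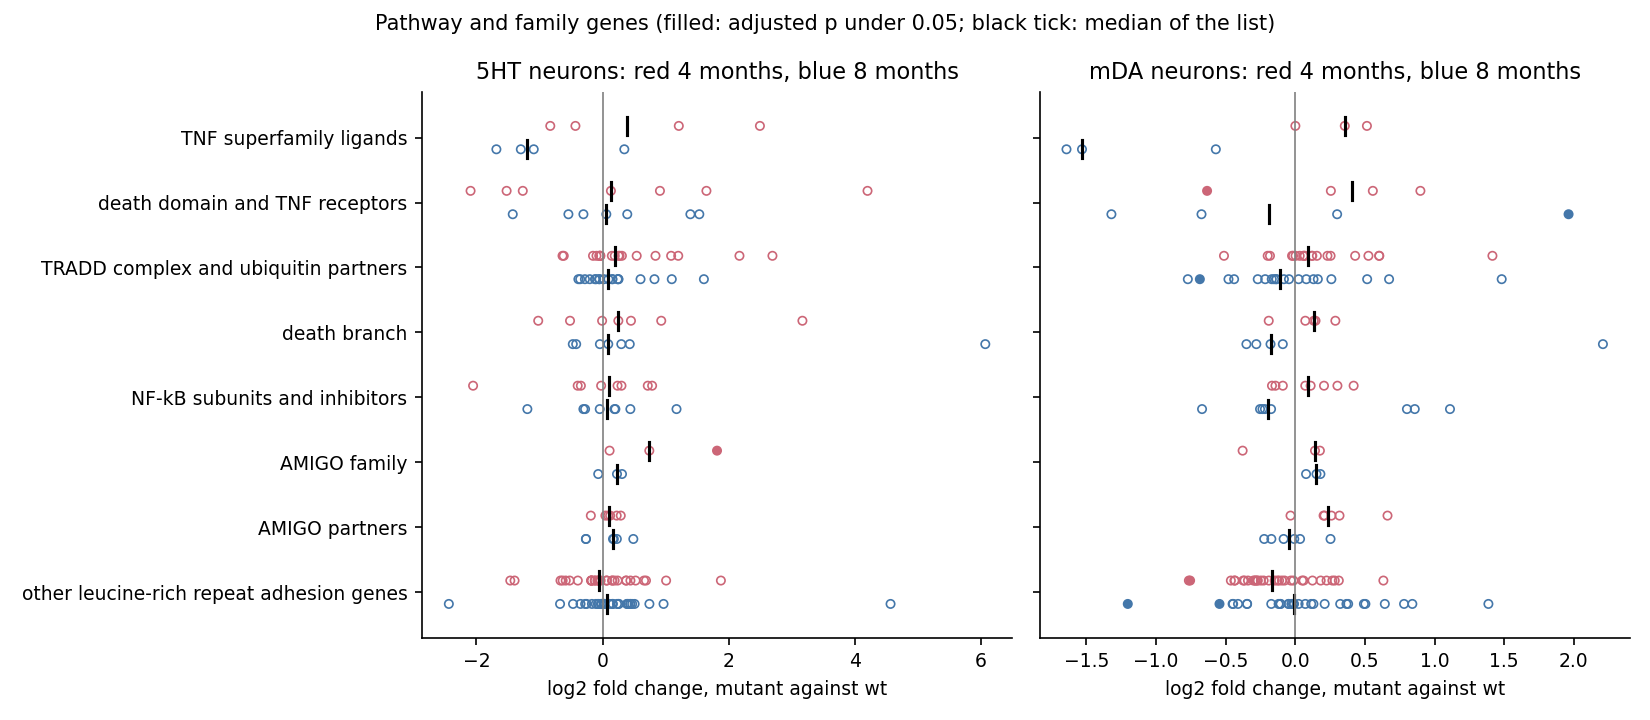
Log2 fold change (mutant against wt, x axis) of each tested gene of 8 pathway and family lists in 5HT (left) and mDA neurons (right); red is 4 months, blue 8 months, filled points have an edgeR adjusted p under 0.05 and black ticks are list medians. Amigo2 is the filled point in 5HT neurons, and in mDA 2 genes at 4 months and 4 at 8 months are filled.

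Taking the 8 lists without Tradd and Amigo2, 91 genes, 85 were tested in 5HT and 80 in mDA neurons. In 5HT 0 were called by edgeR at 4 months (6 at an unadjusted p under 0.05, 0 by DESeq2) and 0 at 8 months (5 at an unadjusted p under 0.05, 1 by DESeq2). Of all 15633 genes edgeR called 0.0128% at 4 months and 0.397% at 8. At an unadjusted p under 0.05 stood 1001 and 766 of them. In mDA 0 rose and 2 fell at 4 months, 2.5% of those tested beside 1.17% of all genes, and 1 rose and 3 fell at 8 months, 5% beside 4.32%. The medians of these genes were 0.09 and 0.09 in 5HT and 0.06 and -0.05 in mDA at 4 and 8 months, beside 0.01, 0.01, -0.01 and 0.02 over all genes.

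Over all 51 libraries, the genes whose log2 CPM went most like that of Tradd among 18386 genes were Atf3 (Pearson r = 0.59), Twist1 (0.58), Snx8 (0.57), Pold4 (0.57) and Foxf1 (0.57). For Amigo2 they were Sgk1 (0.63), Asah1 (0.62), Cacng5 (0.62), Vps33b (0.61) and Coa4 (0.61). Tradd and Amigo2 themselves had an r of 0.29. These coefficients are descriptions over libraries that share cell type, age, set and depth. They include the 4-month 5HT libraries that chose both genes, whose wt libraries held no Tradd read and stood at -1.37 log2 CPM.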

How the data were processed

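Neurons were sorted by fluorescence and libraries made with Smart-seq2, per the labels' protocols. The values are unnormalized counts that the authors deposited, 1 column for each of 51 libraries. STAR 2.7.0a and the builds mm10 and GRCm38 stand in the submitters' processing notes. How reads were counted, and whether by strand, is not given in the sources used here. Each library is 1 labelled animal, groups were taken from cell type, genotype and age, and sets are the labels' sequencing batches.

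Counts were tested with edgeR 4.0.16 (quasi-likelihood, TMM scaling, robust fit, R 4.3.3, limma 3.58.1) on genes passing filterByExpr with a minimum count of 10, Benjamini-Hochberg adjusted over all genes tested, and called at an adjusted p under 0.05. The 5HT fit held 16 libraries with sex, the mDA fit 35 with sex and set within age, the fit across cell types 51, and the wt fit 12 with sex. Approximate SEs are the log2 fold change over the root of F, and 95% intervals follow from them. Levels are CPM on TMM sizes over all libraries. Log2 CPM used a prior count of 2. Single genes were also tested by exact two-sided permutation over libraries (Python 3.11.15). A count of 0 was given an upper limit of 3 counts. Library totals limit precision: 3 counts are 0.531 to 0.974 CPM in the 4-month 5HT wt libraries.

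The alternatives were DESeq2 1.42.0, other scalings, no filter, the compared groups alone, fits without sex or set, fits within sets, a set term in the wt fit (not in the planned design and added after seeing the data), and each library left out. On simulated counts the test recovered 43% of genes changed 4-fold in 5HT at 8 months (14998 genes), 81% in mDA at 4 months (14999) and 85% in mDA at 8 months (14982), and 12%, 56% and 49% of those changed 2-fold.

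The genes and all lists were chosen with earlier results of these data known. Named genes are Tradd, Amigo2, Amigo1 and Amigo3, called members of the lists (at most 4 a list, by smallest p), 3 neighbours on each side, the genes beside the threshold, and the 5 most alike genes by Pearson r; others are marked as named after their values were seen. No library column was unused (0), and 0 pairs of libraries were identical. The reporter row took at most 0.00294% of counts. The list of AMIGO partner genes is not reported here by itself.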

Additional observations from a re-analysis of the deposited data

Results flagged for a closer look

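Among the 4 mutant 5HT libraries at 4 months, Tradd in replicate 3 stood apart from the rest at 2.00 CPM (5 counts), while the others lay between 7.58 and 8.28 CPM. Its gap to the nearest value was 0.888 of the group's range, above Dixon's 95% critical value of 0.829 for 4 samples. Chance alone marks about 1 in 20 groups in this way. The same library was the shallowest of its group, at 2795515 counts, and had the lowest Amigo2 level of the mutants, 79.5 CPM. Without it, 4 genes were called in place of 2.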

How the results depend on the processing

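At 5HT 4 months, the number of genes called (2) was 0 with the compared groups alone, where Tradd did not pass the filter, 48 with DESeq2, 1 with library totals only and 12 with no filter. The Tradd log2 fold change, 8.17 as fitted and dependent on the prior count, was 7.38 with DESeq2. Leaving out single libraries gave 0 to 4 genes, 7.97 to 8.59 for Tradd and 1.51 to 2.02 for Amigo2. At 5HT 8 months the count of 62 was 199 with the compared groups alone and about 1.8e+02 with DESeq2. Exact permutation took the Tradd difference to 1.52 with p = 0.0286. Single libraries left out gave 30 to 49 genes (lowest without mutant replicate 4 or wt replicate 4, and 40, 41 and 32 without mutant replicate 3, wt replicate 2 and wt replicate 3), 1.27 to 1.92 for Tradd and 0.25 to 0.34 for Amigo2.

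In mDA at 4 months, 181 genes became 352 with DESeq2, 57 without the set term, and 1502, 8 and 69 within set1, set2 and set3. Amigo2 was -0.19 within set1. Leaving libraries out gave 78 genes (without wt replicate 3) to 483 (without mutant replicate 7), with a change over 1.5 times also without mutant replicates 1, 5, 6, 8, 9 and 10 and wt replicates 1, 4, 5 and 8. Tradd then ran from 0.78 to 1.09 and Amigo2 from 0.08 to 0.27. At 8 months, 666 genes became about 3.8e+02 with the compared groups alone, 1060 with DESeq2, 393 without the sex term and 109 within set2, where Amigo2 was -0.15. Leaving libraries out gave 501 to 740 genes, 0.31 to 0.72 for Tradd and -0.056 (without mutant replicate 6) to 0.23 for Amigo2.

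For the difference between the ages in mDA, the count of genes called became 615 without the set term and 154 without the sex term. Amigo2 was 0.0060 with library totals only and 0.076 without the set term. Leaving libraries out gave 604 to 1309 genes (604 and 620 without 8-month wt replicates 2 and 4, 617 without 4-month mutant replicate 5, 627 without 8-month mutant replicate 1), -0.68 to -0.25 for Tradd and -0.22 to 0.053 for Amigo2 (0.015 without 4-month mutant replicate 2, 0.013 without 8-month mutant replicate 5, 0.053 without 8-month wt replicate 5). For 5HT minus mDA at 8 months, 33 genes became 101 with DESeq2, and Amigo2 was -0.034 without the set term. Leaving libraries out gave 12 (5HT wt replicate 1 or 3) to 39 genes, 19 without 5HT mutant replicate 1, 3 or 4 and 20 without 5HT wt replicate 2, with 0.81 to 1.40 for Tradd and 0.06 to 0.35 for Amigo2. Between wt cell types Amigo2 (0.79) was 0.82 with no filter (adjusted p = 0.0516 by edgeR), 0.66 without the sex term and 0.40 with the set term added after seeing the data, all no longer called. Leaving libraries out gave 2036 to 3251 genes, -0.85 to -0.077 for Tradd and 0.62 to 1.17 for Amigo2, whose call was lost without 5HT wt replicate 1, 2 or 3 or mDA wt replicate 2, 3, 4, 7 or 8.

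By scaling, the genes called higher in mDA at 8 months were 376 of 666 and 507 of 717 with library totals only. For the difference between the ages they were 580, with 362 lower, and 858 of 1107 with library totals only, which moved the median of all genes from 0.02 to 0.12, and 481 of 930 with DESeq2's size factors in edgeR, and at 4 months 89 of 181 and 96 of 152 with those factors. The cause of these changes was not tested. In the other 5 contrasts without a 4-month 5HT group, neither gene was called in any fit with a library left out. No paired analysis was possible because each animal carries its own number and groups share none.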
